A study of Bos taurus with 40 samples.

Results

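The transcripts described here are the most abundant in the liver of 40 Holstein Friesian bulls. They are the genes selected on their mean level: a gene was taken when its mean over the 40 animals was at least 1000 CPM, its read count scaled to 1000000 reads counted on all genes of that animal. Of the 24616 genes in the count tables, 119 reached that level, 1 of them was left out by the selection rule, and 118 members remained (0.479% of the genes). The members were chosen by their mean level across all animals, so their high level is a description. Diet and period were not used in the choice, but 5 members reached the threshold only through 1 group: without that group the mean of the other 30 animals was under 1000 CPM. They were ranks 107 (995.6 CPM without RES of Period 1), 113 (852.9 without RES of Period 2), 116 (998.1) and 118 (984.1, both without RES of Period 1) and 117 (773.8 without ADLIB of Period 2). For them a high level in that group was a condition of membership, so their contrasts with it are given as descriptions, and counts of calls are also given over the other 113 members.

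Bulls were in 4 groups of 10. RES bulls received a restricted allowance, set for a gain of 0.6 kg per day, until day 125 (Period 1) and then had ad libitum access to feed, and were sampled at day 125 or after 55 days of re-alimentation (Period 2). ADLIB bulls had ad libitum access throughout and were sampled at the same 2 times. All groups shared one ration of 70% concentrate and 30% grass silage. The labels give no age for single animals, and they describe RNA of frozen liver tissue. The sources differ on the animals. The design text speaks of biopsies and the labels count 20 bulls in one place and 20 for each diet in another, whereas the study's methods describe sampling at slaughter, by which no bull could be sampled in both periods. The 2 periods were treated as different animals, and where bulls were in fact sampled in both, the interaction and period tests would have left out that pairing. Period stands together with age, slaughter day and time on feed.

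Hepatocytes make most of the proteins of blood plasma, and a small number of genes therefore holds a large part of the messenger RNA of this tissue. Carrier proteins such as albumin, apolipoproteins, clotting and complement factors, protease inhibitors, acute phase proteins and metabolic enzymes are well known among abundant liver transcripts, as are transcripts of the mitochondrial genome. The files identify genes by Ensembl identifiers only, and 0 identifiers matched the reference table of gene names used here, so which member is which of these is not stated. Members are therefore called by their rank, from rank 1 (the highest mean CPM) to rank 118, and identifiers are given for 2 members that rose and 2 that fell. For the same reason liver and blood marker genes were not checked, and chromosome positions and sequences are not given. CPM is not corrected for transcript length, so a rank compares reads and not molecules.

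Reads on genes ranged from 8656866 to 15520237 per animal. They were 78.1% ± 1.07 (SD, n = 10) of all counted reads in ADLIB and 75.8% ± 1.79 in RES in Period 1, and 76.6% ± 1.33 in ADLIB and 77.7% ± 1.55 in RES in Period 2. At this depth the counting error of a member was small, with a median of 0.656% of its level per animal and 0.951% at most for a member at its mean read count. The spread between animals was far larger. The SD of a member's CPM within a group was 18.1% of its mean at the median over members. In a bulk tissue, fewer cells of a type and less RNA per cell cannot be told apart.

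The 118 members held 53.6% ± 2.29 (SD, n = 40) of all reads on genes. Their levels were uneven. The rank 1 member alone had a mean of 88043 CPM, or 8.80% of the reads. Ranks 2 to 7 lay between 31016 and 17884 CPM, and rank 8 followed at 8876 CPM. Ranks 1 to 7 together held 23.6% of the reads on genes and 44.1% of the reads on members. A further 55 members had means between 2000 and 10000 CPM, and 56 had means under 2000 CPM. The median member stood at 2129 CPM, beside 4.44 CPM for the median of all genes with at least 1 read. The 3 members just inside the threshold had 1034, 1008 and 1004 CPM, and the 3 genes just outside it had 999.5, 996.1 and 995.4 CPM.

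**Figure D1:**
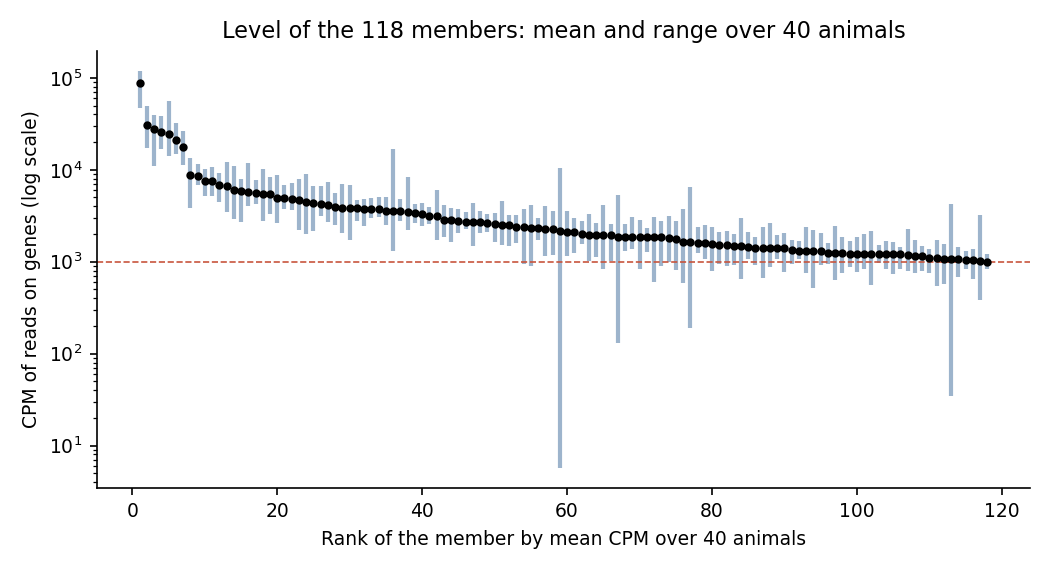
CPM of each of the 118 members on a log axis against its rank, with the mean over 40 animals as a point, the lowest to highest animal as a bar and the 1000 CPM threshold as a dashed line. Ranks 1 to 7 stand above the rest, and ranks 59, 67, 77 and 113 span far more than their neighbours, with a lowest animal of 5.70 CPM for rank 59.

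Not every member was abundant in every animal. Of the 118 members, 70 were at 1000 CPM or above in all 40 animals and 107 were so in the mean of each of the 4 groups. The SD within groups, averaged over the groups, was under 10% of the mean for 7 members, between 10% and 20% for 65, between 20% and 50% for 41 and over 50% for 5. The steadiest was rank 46, at 8.85%. The most variable was rank 59, at 155%.

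Rank 59 was an abundant transcript in some animals and a scarce one in others. In ADLIB in Period 1 its lowest, median and highest animals had 40.5, 162.5 and 10480 CPM, and in RES in Period 1 they had 5.70, 25.9 and 8649 CPM. In Period 2 they had 76.4, 2271 and 7957 CPM in ADLIB and 241.7, 1731 and 10074 CPM in RES. At or above 1000 CPM were 2 of 10 animals in each group of Period 1, 5 in ADLIB in Period 2 and 6 in RES in Period 2. The groups overlapped over nearly the whole range, and no contrast of rank 59 passed the test. Rank 77 was alike in its spread (109%), from 189.0 CPM in an ADLIB animal of Period 1 to 6551 CPM in a RES animal of Period 1. Rank 113 ranged from 34.7 CPM in RES in Period 1 to 4244 CPM in RES in Period 2, with a spread of 85.7%. Both were chosen after their values were seen, as was rank 59.

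The share of the library held by the members was lowest, by mean, in RES in Period 2 and highest in ADLIB in Period 1. In ADLIB in Period 1 the lowest, median and highest animals were at 54.0%, 55.8% and 56.9%, with a mean of 55.7% ± 1.02 (SD, n = 10). In RES in Period 1 they were at 49.2%, 53.0% and 55.8%, with a mean of 52.9% ± 2.18 (SD, n = 10). All 10 RES animals were below the ADLIB median, 6 of them were below every ADLIB animal, and 4 overlapped with ADLIB. The difference of the means was -2.79 percentage points (SE 0.76).

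In Period 2 the diets were closer. The lowest, median and highest ADLIB animals held 49.3%, 53.6% and 56.5% (mean 53.0% ± 2.20, SD, n = 10), and those of RES held 48.3%, 53.1% and 55.0% (mean 52.5% ± 2.24, SD, n = 10). The difference was -0.54 percentage points (SE 0.99), and only 1 RES animal lay below the lowest ADLIB animal. Between periods the mean of ADLIB moved by -2.68 percentage points (SE 0.77), with 6 of 10 animals below every ADLIB animal of Period 1. The mean of RES moved by -0.43 (SE 0.99). These shares carry no p-value, because the members were chosen as a set with results of these data known.

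The library names open with a number from 1 to 4, and the share was compared within it. In Period 1 the difference, RES minus ADLIB, was -2.85 percentage points for number 1 (3 against 3 animals), -5.05 for number 3 (3 ADLIB, 2 RES) and -1.61 for number 4 (4 ADLIB, 2 RES). Number 2 held 3 RES animals and no ADLIB animal. In Period 2 it was 1.92 for number 1 (1 ADLIB, 3 RES), -4.26 for number 2 (5 ADLIB, 2 RES), -0.42 for number 3 (3 ADLIB, 2 RES) and 0.80 for number 4 (1 ADLIB, 3 RES), so its sign varied. What the number stands for is not said in the labels. The percentage of counted reads that fell on genes was also lower in RES in Period 1 and its part in the lower share was not tested.

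**Figure D2:**
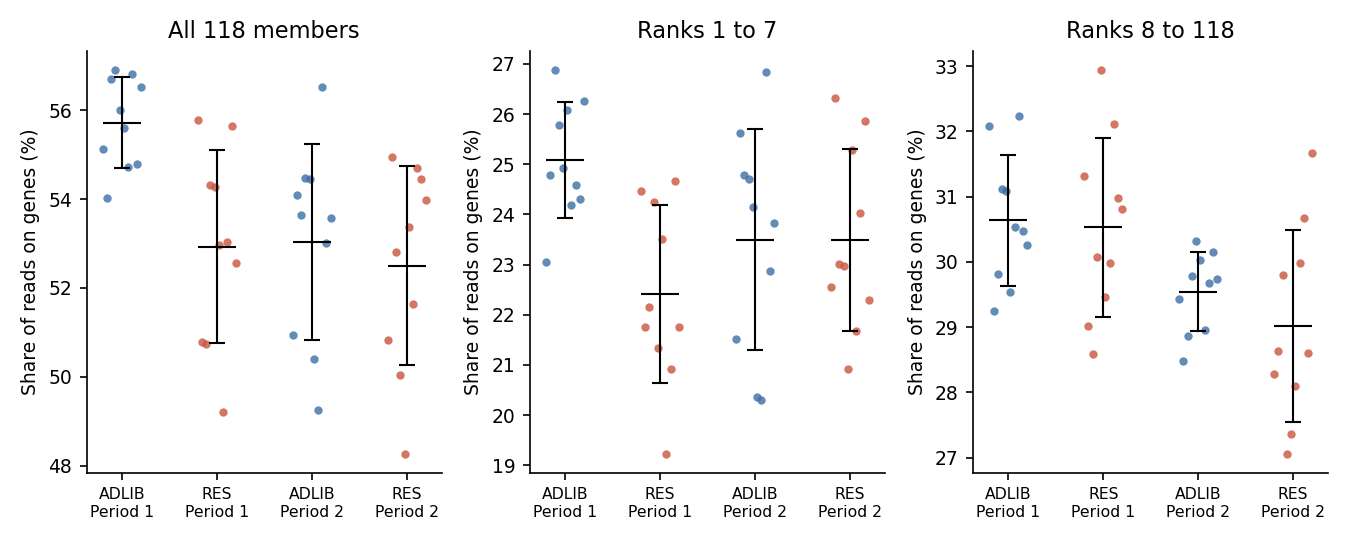
Share of reads on genes, in percent, held by all 118 members, by ranks 1 to 7 and by ranks 8 to 118, for each animal in 4 groups of 10 (points), with mean and SD (bars); the axes do not start at 0. In Period 1 RES stood at 52.9% against 55.7% for all members and at 22.4% against 25.1% for ranks 1 to 7, while ranks 8 to 118 held 30.5% against 30.6%.

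The lower share of RES in Period 1 lay in the first ranks. Ranks 1 to 7 held 25.1% ± 1.15 (SD, n = 10) of the reads in ADLIB and 22.4% ± 1.77 in RES, a difference of -2.68 percentage points (SE 0.67), with all 10 RES animals below the ADLIB median. The other 111 members differed by -0.11 (SE 0.54). In Period 2 ranks 1 to 7 held 23.5% ± 2.20 in ADLIB and 23.5% ± 1.82 in RES.

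Single members moved both ways beneath these sums. In Period 1, 67 members had a lower mean share in RES, which added up to -5.86 percentage points, and 51 had a higher one, which added up to 3.07. Rank 3 differed by -1.28 points, rank 1 by -1.09, rank 2 by -0.46 and rank 8 by -0.36. In the other direction rank 5 differed by 0.60 points, rank 16 by 0.30, rank 67 by 0.24 and rank 36 by 0.23. Single RES animals weighed heavily on 4 of these. Without RES replicate 7, at 5.60% of its reads, the difference of rank 5 was 0.34, and without RES replicate 5, at 1.67%, that of rank 36 was 0.097. Without RES replicate 10, at 4.69%, rank 1 differed by -0.64, and without RES replicate 5, at 4.93%, rank 2 differed by -0.72. Ranks 3, 8, 16 and 67 moved by less than 1.5 times without any single animal. In Period 2 the differences were 0.32 for rank 3, -0.53 for rank 1, 0.22 for rank 2, 0.14 for rank 8 and between -0.01 and 0.03 for ranks 5, 16, 67 and 36. Without single animals those of ranks 5, 67 and 36 turned sign, that of rank 1 ran from -0.91 to -0.16 and that of rank 2 from 0.11 to 0.30.

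**Figure D3:**
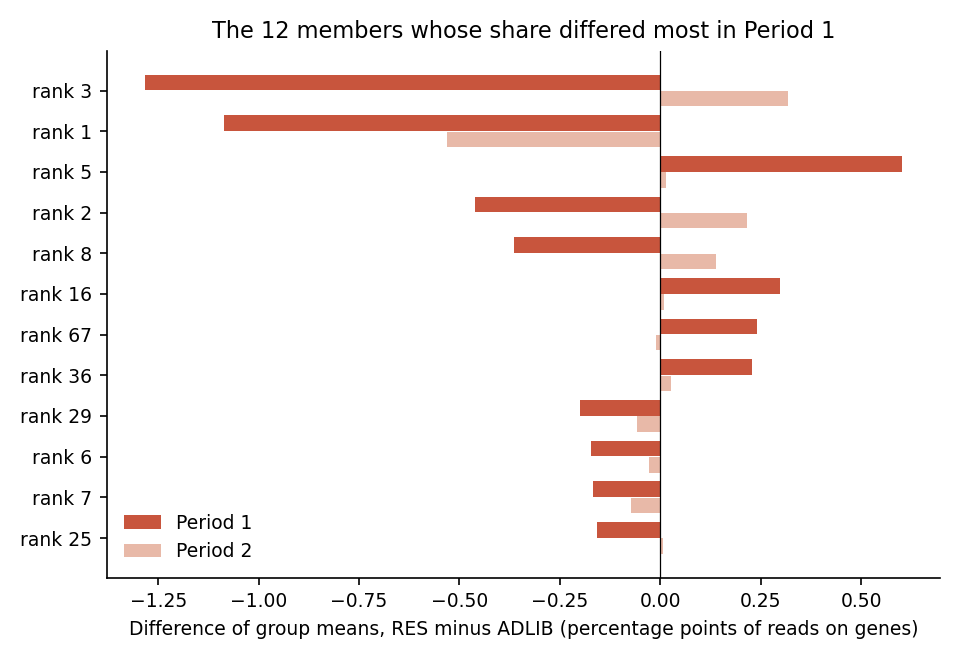
Difference of the group means, RES minus ADLIB, in percentage points of reads on genes, for the 12 members with the largest difference in Period 1 (dark bars), with the same difference in Period 2 (light bars). Rank 3 differed by -1.28 in Period 1 and by 0.32 in Period 2, and rank 1 by -1.09 and -0.53.

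Rank 1 contributed much to the difference and varied widely within groups. Its share in ADLIB in Period 1 was 6.95%, 10.1% and 11.8% in the lowest, median and highest animals, and in RES it was 4.69%, 9.36% and 11.7%. The groups overlapped, and the normalised change was -0.24 on the log2 scale (SE 0.19), which did not pass the test (edgeR quasi-likelihood test, FDR = 0.412). In Period 2 it was 6.65%, 8.17% and 12.0% in ADLIB and 5.55%, 8.28% and 11.5% in RES (FDR = 0.725).

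The diet effect on each member was then tested in each period with edgeR, over all genes that had 4 or more reads in each animal of the fit. Values below are normalised CPM, which correct each library for composition with edgeR's TMM factors, and fold changes are RES relative to ADLIB. A gene was called at an FDR under 0.05, by Benjamini-Hochberg adjustment over all genes tested, and an absolute log2 fold change of at least 0.32. TMM factors had a mean of 0.935 in ADLIB and 0.996 in RES in Period 1, and of 1.02 and 1.06 in Period 2. The group with the highest mean share of the members, ADLIB in Period 1, had the lowest mean factor, and the group with the lowest share, RES in Period 2, had the highest.

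At the end of restricted feeding 21 of the 118 members were called, 16 lower and 5 higher in RES. Called members were thus 17.8% of all members, beside 10.3% of the 12047 genes tested. The genes tested needed only 4 reads in each animal, so many have a larger counting error than the members. The shares are therefore not of equally measured genes. Those called lower were 13.6% of the members, beside 5.23% of all genes, and those called higher were 4.24%, beside 5.09%. Over the 113 members that do not rest on 1 group 20 were called, 16 lower and 4 higher. The median log2 fold change was -0.14 over the members and 0.02 over all genes tested, and 76 of 118 members had a value below 0. Biological variation between animals was of similar size for both, with a median coefficient of 0.208 for the members and 0.184 for all 11868 genes that had 4 or more reads in each of the 40 animals.

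The largest rise was that of rank 67 (ENSBTAG00000018365), 2.66-fold. Its lowest, median and highest animals had 141.0, 1496 and 3042 normalised CPM in ADLIB and 2067, 3443 and 5746 in RES. Of the 10 RES animals, 8 were above every ADLIB animal and 2 overlapped with them. The log2 fold change was 1.41 (SE 0.41, FDR = 0.0304). It was not called without ADLIB replicate 6 or 10 or without RES replicate 8 or 9 of Period 1, with FDR up to 0.0575. In Period 2 its medians were 1286 in ADLIB and 800.0 in RES, and the groups overlapped (FDR = 0.861).

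Rank 107 (ENSBTAG00000013343) was 1.63-fold higher in RES, the group through which it is a member. In ADLIB it had 939.9, 1043 and 1480 normalised CPM in the lowest, median and highest animals, and in RES it had 1163, 1883 and 2420. Here too 8 of 10 RES animals were above every ADLIB animal. The log2 fold change was 0.71 (SE 0.13, FDR = 0.000888). In Period 2 the medians were 992.2 and 874.8, with a log2 fold change of -0.12 (FDR = 0.643).

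Rank 16 rose 1.50-fold, and its groups did not overlap. ADLIB animals lay between 4599 and 6206 normalised CPM with a median of 5379, and RES animals between 6223 and 13497 with a median of 7363. The log2 fold change was 0.59 (SE 0.13, FDR = 0.00368). It was the only one of the 118 members without overlap between diets in Period 1, beside 0.631% of all genes tested. Ranks 101 and 78 rose less, by 0.36 (FDR = 0.0329) and 0.32 (FDR = 0.0186) on the log2 scale, the latter just past the fold change required. Rank 101 was not called in 8 and rank 78 in 12 of the 20 fits without 1 animal.

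Of the 16 members called lower in RES, rank 29 (ENSBTAG00000015358) had the largest change, 1.78-fold lower. ADLIB animals had 2475, 5474 and 7181 normalised CPM at the lowest, median and highest, and RES animals had 2119, 2840 and 4709. Most of the RES range lay inside that of ADLIB, which was wide, and only 1 RES animal was below every ADLIB animal. The log2 fold change was -0.83 (SE 0.17, FDR = 0.00287).

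Rank 8 (ENSBTAG00000003564) changed by -0.80 on the log2 scale (SE 0.21, FDR = 0.016). It had 7163, 8736 and 14879 normalised CPM in ADLIB and 3689, 4431 and 11711 in RES at the lowest, median and highest. In RES, 8 animals were below every ADLIB animal and 2 were within the ADLIB range.

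Rank 3 was the most abundant member to be called. ADLIB animals had 25725, 35213 and 42645 normalised CPM at the lowest, median and highest, and RES animals had 9418, 20827 and 27894. Of the 10 RES animals 9 were below every ADLIB animal. The log2 fold change was -0.80 (SE 0.14, FDR = 0.000878). As a share of the reads it was 3.27% in ADLIB and 1.99% in RES by mean.

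The other 13 members called lower had log2 fold changes from -0.64 (rank 25, FDR = 0.00247) to -0.41, at FDR up to 0.0458. Ranks 80, 61, 102, 58, 112, 111 and 70 changed by -0.62, -0.62, -0.62, -0.60, -0.59, -0.58 and -0.57. For rank 112, 8 RES animals were below every ADLIB animal, and for rank 25 it was 7.

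**Figure D4:**
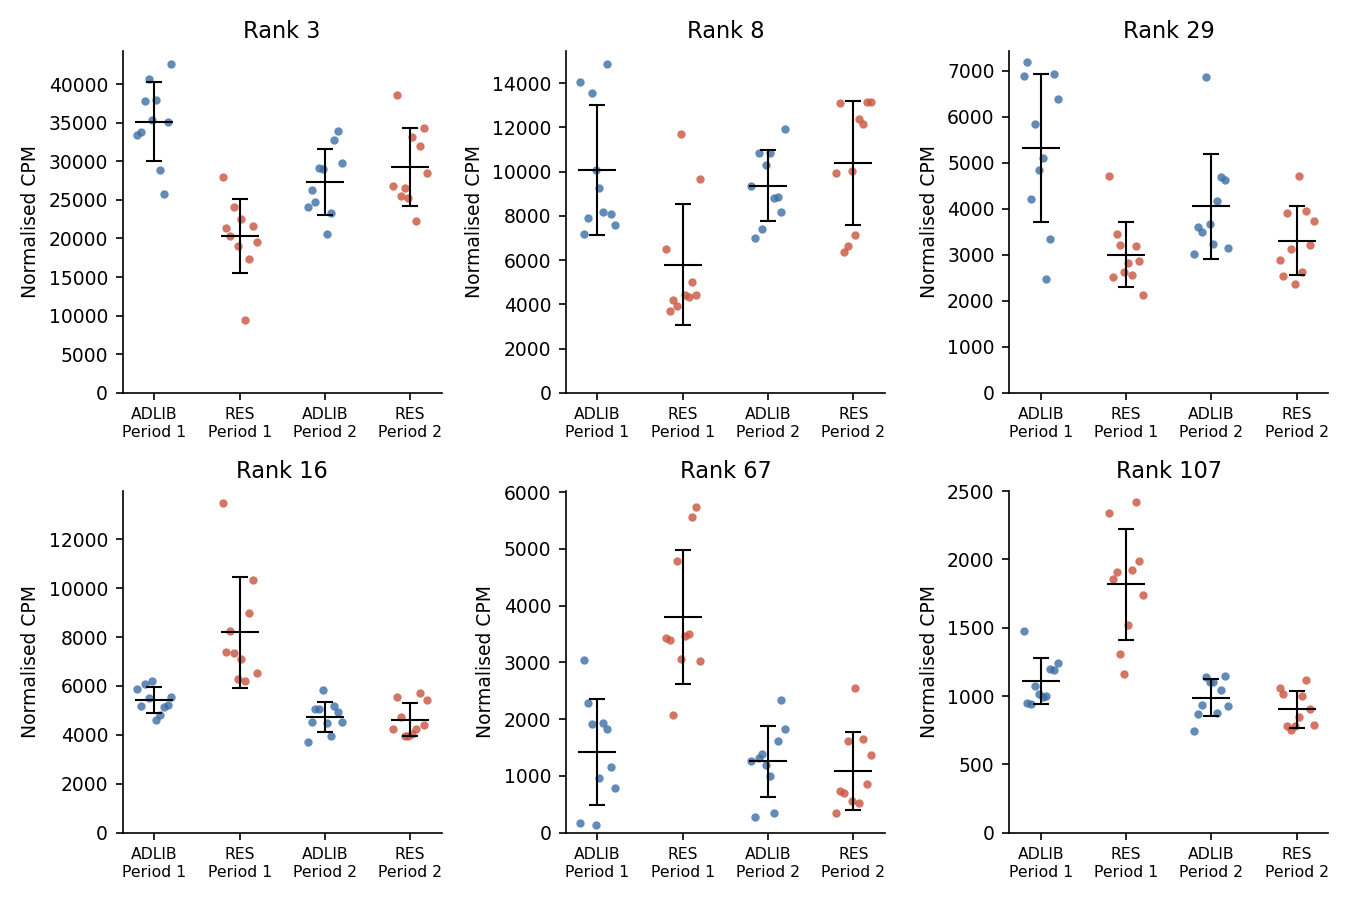
Normalised CPM of 6 members in each animal of the 4 groups (points), with mean and SD (bars); each panel starts at 0 and has its own scale. Ranks 3, 8 and 29 were lower and ranks 16, 67 and 107 higher in RES than in ADLIB in Period 1 and not called in Period 2, and the RES animals of rank 16 in Period 1 (from 6223) stand above all ADLIB animals (up to 6206).

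With the on-gene percentage of reads as a covariate, 5 members were called in Period 1 (2 higher, 3 lower), beside 3.27% of all genes, 2.11% higher and 1.16% lower. They were ranks 16, 107, 29, 94 and 112, with log2 fold changes of 0.78, 0.74 and -0.85 for the first 3. Rank 3 then had -0.55 and rank 8 -0.81, and neither was called. The covariate differs between the diets in Period 1, so its share of these changes and that of the diet cannot be told apart.

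Among the other members of the first 15 ranks none was called for diet in Period 1. Rank 2 had a log2 fold change of -0.32 (FDR = 0.169), and 8 of 10 RES animals were below every ADLIB animal while 1 was above them all. Rank 5 had 0.20 (FDR = 0.455), rank 11 had 0.18 (FDR = 0.246), and ranks 4, 6 and 7 had -0.16, -0.22 and -0.25. Rank 15 had -0.28 (FDR = 0.113). Ranks 9, 10, 12, 13 and 14 had -0.07, -0.24, -0.12, 0.11 and -0.06. The values of ranks 9 and 14 turned above 0 when libraries were scaled by total reads.

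After 55 days of re-alimentation no member was called between RES and ADLIB by edgeR's quasi-likelihood test, beside 0% of the 12202 genes tested. The smallest FDR of a member was 0.273. At an unadjusted p under 0.05 there were 11 of 118 members, beside 12.8% of all genes. Of these members 10 were lower and 1 was higher in RES. All genes were not split by direction here, so nothing is read from that split. DESeq2 called 0 members, beside 0.426% of all genes, and limma voom called 0. The paper did report genes that differed between the diets in this period, from edgeR with moderated tagwise dispersions. The 0% over all genes thus holds for the test used here. Whether any gene of the paper is a member cannot be told, because identifiers were not matched to names. The median log2 fold change over the members was -0.09, against 0.01 over all genes. Values below 0 were found for 91 of 118 members (77.1%), beside 47.9% of all genes. Scaled by total reads on genes it was 79 (66.9%), beside 36.7%, with medians of -0.04 and 0.06. With the on-gene percentage of reads as a covariate it was 109 (92.4%), beside 48.5%, with medians of -0.18 and 0.007.

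The 16 members called lower in Period 1 had log2 fold changes between -0.37 and 0.16 in Period 2, and the 5 called higher had values between -0.19 and -0.0013. As sums, the 16 held 7.32% ± 0.59 of the reads in ADLIB and 4.74% ± 0.57 in RES in Period 1, and 6.73% ± 0.44 and 7.01% ± 0.50 in Period 2 (SD, n = 10 each). The 5 held 1.00% ± 0.10 and 1.70% ± 0.23 in Period 1, and 0.972% ± 0.09 and 0.955% ± 0.08 in Period 2. The sums of Period 1 follow from how these members were picked and are a description. The libraries of Period 2 were not used to call these members for diet. They did count in the mean level that made each gene a member. The sums of Period 2 are therefore not fully independent of the choice.

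**Figure D5:**
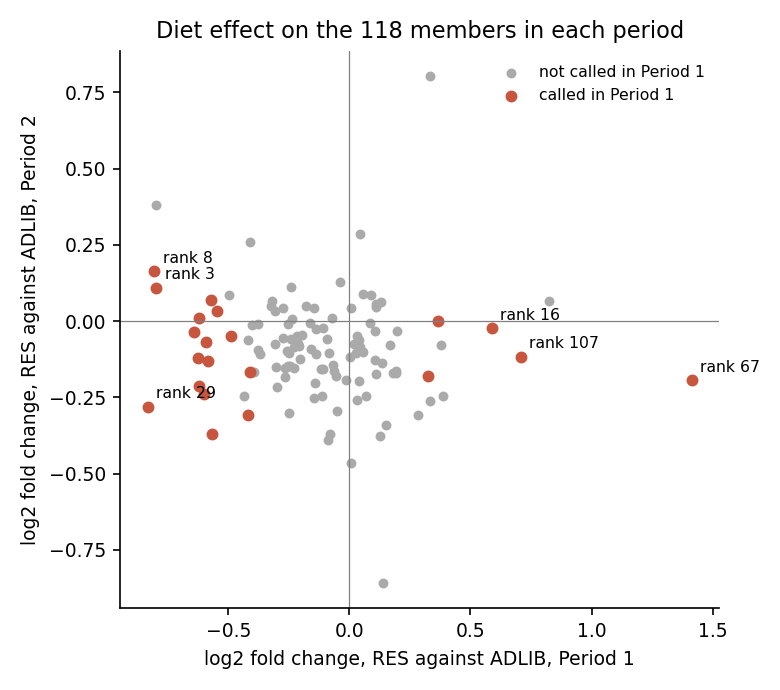
log2 fold change of RES against ADLIB in Period 1 (horizontal) and in Period 2 (vertical) for the 118 members, with the 21 called in Period 1 in red. The red points reach from -0.83 to 1.41 across and stay between -0.37 and 0.16 up and down.

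Whether the diet effect changed with period was tested itself, in a fit of all 40 animals. Of the 118 members 8 passed an FDR under 0.05, beside 9.45% of the 11868 genes tested. The diet effect (RES against ADLIB) was higher in Period 2 than in Period 1 for 4 members (beside 3.61% of all genes) and lower for 4 (beside 5.83%). Scaled by total reads on genes in place of TMM, 4 were higher and 9 lower, beside 9.07% of all genes called, 2.60% higher and 6.47% lower. With the on-gene percentage of reads as a covariate none was higher and 6 were lower, beside 5.3% of all genes, 1.81% higher and 3.49% lower. Over the 113 members that do not rest on 1 group 7 passed, 4 higher and 3 lower.

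Higher were rank 8, by 0.95 on the log2 scale (SE 0.27, FDR = 0.0188), rank 3, by 0.89 (SE 0.18, FDR = 0.000997), rank 70, by 0.63 (FDR = 0.0254), and rank 25, by 0.59 (FDR = 0.0454). All 4 had a negative diet effect in Period 1. With the covariate they had 0.71, 0.52, 0.45 and 0.33 in that order, and none was called. Rank 25 was not called in 22 of the 40 fits without 1 animal. For rank 3 the medians were 27673 normalised CPM in ADLIB and 27649 in RES in Period 2. For rank 8 they were 9115 and 11103.

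Lower were rank 107, a member through RES of Period 1, at -0.84 (SE 0.16, FDR = 0.000486), rank 16, at -0.63 (SE 0.16, FDR = 0.00759), rank 87, at -0.61 (FDR = 0.0413), and rank 78, at -0.52 (FDR = 0.00151). Rank 87 was not called in 19 of the 40 fits without 1 animal. Rank 67, with the largest rise in Period 1, had an interaction of -1.62 (SE 0.57) that did not pass (FDR = 0.0649). Rank 29, with the largest fall, had 0.53 (FDR = 0.145).

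Within RES, 43 members were called between the periods, 31 lower and 12 higher in Period 2, beside 23.1% of all genes tested, 12.5% lower and 10.6% higher. These values share the RES animals of Period 1 with the diet contrast above. Scaled by total reads, 22 were lower and 19 higher, beside 24.4% of all genes, 7.64% lower and 16.7% higher. With the on-gene percentage of reads as a covariate 39 were lower and 3 higher, beside 23.5% of all genes, 12.4% lower and 11.1% higher. Over the 113 members that do not rest on 1 group 40 were called, 29 lower and 11 higher. Of the 43, 28 were called in each of the 40 fits without 1 animal, and ranks 20 and 108 were not called in 23 of them. Scaling by total reads moved the median of all genes from 0.02 to 0.11 on the log2 scale, and in ADLIB from -0.0029 to 0.12. In the diet contrast of Period 1 it moved it from 0.02 to 0.12.

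The largest falls within RES were those of rank 67 (log2 -1.80, FDR = 0.00128), rank 107 (-1.01, FDR = 6.64e-09), rank 87 (-0.96, FDR = 1.38e-06), rank 38 (-0.93, FDR = 6.35e-06) and rank 30 (-0.87, FDR = 0.000187). For rank 107, whose level in RES in Period 1 made it a member, the RES animals had 1163 to 2420 normalised CPM in Period 1 and 751.7 to 1121 in Period 2, without overlap. Ranks 16 and 78 did not overlap either. Non-overlap of the 2 periods in RES was found for these 3 members, beside 2.14% of all genes.

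The largest rises were those of rank 113 (1.75, FDR = 0.0249), rank 8 (0.85, FDR = 0.00086), rank 72 (0.81, FDR = 0.000294), rank 70 (0.69, FDR = 0.000107) and rank 63 (0.59, FDR = 0.0119). With the covariate ranks 113 and 63 had 1.92 and 0.49 and were not called. Rank 113 is a member through RES of Period 2, so its rise is a description, and it was not called without RES replicate 7 of Period 2 (FDR = 0.0543). Rank 113 had a median of 102.8 normalised CPM in RES in Period 1 and 1375 in Period 2, with 34.5 to 2069 in the first and 917.2 to 3898 in the second, so that its groups overlapped. In ADLIB its medians were 542.2 and 1252 (log2 0.57, FDR = 0.649). Rank 3 rose by 0.53 (FDR = 0.00168).

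Within ADLIB, whose feeding did not change, 3 members were called between the periods, 1 higher and 2 lower, beside 2.28% of all genes, 1.67% higher and 0.607% lower. Scaled by total reads they were 3 higher and 2 lower, beside 6.75% of all genes, 6.53% higher and 0.219% lower. The higher one was rank 117, a member through ADLIB of Period 2, so its value is a description and the other 113 members gave 0 higher and 2 lower. It differed by 1.30 on the log2 scale (SE 0.25, FDR = 0.00501), from 423.2, 653.0 and 939.9 normalised CPM in the lowest, median and highest animals to 699.6, 1587 and 3055. In RES it had medians of 744.2 and 942.0 in the 2 periods (FDR = 0.393). Its interaction was -1.01 (FDR = 0.0569). Rank 20 fell by 0.60 (SE 0.15, FDR = 0.0196) and rank 5 fell by 0.57 (SE 0.15, FDR = 0.0281). Rank 5 was not called without ADLIB replicate 10 of Period 1 or ADLIB replicate 2 of Period 2 (FDR up to 0.0659).

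Rank 5 fell in both diets. Its lowest, median and highest animals had 20245, 27753 and 36135 normalised CPM in ADLIB in Period 1 and 13533, 18863 and 24418 in Period 2. In RES they had 21530, 28319 and 48504 in Period 1 and 11787, 18504 and 26334 in Period 2, a log2 change of -0.82 (SE 0.15, FDR = 5.26e-05). The animals of the 2 periods overlapped in both diets. With the library name number as a block 1 member, rank 117, was called between periods in ADLIB, beside 0.489% of all genes, and it was also the 1 called with the on-gene percentage of reads as a covariate, beside 0.615%.

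Rank 5 and 9 other members, among them ranks 13, 14, 30 and 38, carry identifiers of 1 run of the numbering, those that begin with ENSBTAG000000435. This set was noticed after the values were seen, and no test was made of it. Together the 10 members held 6.66% ± 1.36 (SD, n = 10) of the reads in ADLIB and 7.53% ± 2.46 in RES in Period 1, and 5.25% ± 0.69 and 4.80% ± 0.94 in Period 2. In RES in Period 1 the lowest, median and highest animals held 5.14%, 6.34% and 12.2%, and in Period 2 they held 3.22%, 4.92% and 6.25%. The mean share of the set was thus lower in Period 2 in both diets, but not alike. In RES 7 animals of Period 2 were below every animal of Period 1, and in ADLIB 0 were. Of the 10 members 9 were called lower in RES, beside 12.5% of all genes. In ADLIB 1 was, rank 5, beside 0.607%. The mean share of the other members was lowest in RES in Period 1.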

How the data were processed

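The authors sequenced hepatic mRNA of 40 bulls as single-end reads, aligned them to UMD3.1 with TopHat and used HTSeq to count the uniquely mapped reads of each Ensembl gene. They deposited these read counts without normalisation, and the counts were used here. Base calling used CASAVA 1.4, per the submitters' processing notes. The deposited normalised values were not used. CPM and shares were computed over all genes with Python 3.11.15, pandas 2.3.3 and numpy 2.4.6.

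Tests used edgeR 4.0.16 in R 4.3.3 (quasi-likelihood, robust, TMM, 4 or more reads in each animal), fitted on all genes that passed this filter and adjusted over them. All 118 members passed. Each period was fitted on its own 20 animals, and interaction and period contrasts on all 40. Fits were checked on simulated counts drawn with the same dispersion for every gene, a setting that leaves out the unequal spread of the members. Calls needed FDR under 0.05 and an absolute log2 fold change of at least 0.32, and FDR alone in the interaction. DESeq2 1.42.0, limma 3.58.1, other filters, scalings, thresholds, blocks and fits without each animal were alternatives.

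The members, lists and tests were chosen with earlier results of these data known. Described by rule were the first 15 ranks, the 10 largest called changes in each direction for diet, 5 for the interaction and for each period contrast, and 3 genes either side of the threshold. With 0 identifiers matched to names, the functional and marker lists were not run.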

Additional observations from a re-analysis of the deposited data

Results flagged for a closer look

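An animal far from the other 9 of its group was sought by Dixon's criterion for 10 values in 152 sets of values, the summed share and 37 members in 4 groups. It was met 17 times, where chance gives about 1 in 20. In ADLIB in Period 1, replicate 8 was the highest for 4 members: rank 4 (43837 normalised CPM, next 29477), rank 6 (36107, next 26021), rank 7 (30129, next 20596) and rank 113 (2884, next 1284). Replicate 2 of that group was the lowest for rank 30 (2146), rank 38 (2557) and rank 111 (755.1), and replicate 1 was the lowest for rank 11 (6680).

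In RES in Period 1, replicate 1 stood high for rank 29 (4709). In ADLIB in Period 2, replicate 8 stood high for rank 13 (8899), rank 14 (7889) and rank 78 (1870), replicate 9 for rank 20 (6141) and replicate 4 for rank 29 (6860). In RES in Period 2, replicate 8 stood high for rank 38 (4050), and replicate 7 stood high for rank 113 (3898) and low for rank 101 (766.4). The summed share of the members had no such animal in any group.

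The diet effect differed between the periods, by the interaction test of edgeR, for 8 members. The difference on the log2 scale was 0.89 for rank 3, 0.95 for rank 8, 0.59 for rank 25 and 0.63 for rank 70, and -0.63 for rank 16, -0.52 for rank 78, -0.61 for rank 87 and -0.84 for rank 107.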

How the results depend on the processing

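The count of 21 members called for diet in Period 1 stayed within 1.5 times under DESeq2, limma voom, other scalings and filters and the library name number as a block. It was 5 with the on-gene percentage of reads as a covariate, 0 at FDR under 0.0005, 44 of the 232 members at a mean of at least 500 CPM and 9 of the 62 at 2000 CPM, and from 17 to 27 without single animals. The count of 0 in Period 2 was 0 under every alternative run, those without single animals included. For the interaction (8 members) it was 13 with total reads as scaling, 13 with DESeq2 (11.0% of the members, beside 11.5% of all genes), 1 at FDR under 0.0005, 28 and 4 at the 2 other thresholds, and from 6 to 14 without single animals; 14 came without RES replicate 5 of Period 1. Between periods in RES (43 members) it was 12 at FDR under 0.0005, 91 and 21 at the 2 other thresholds, and from 35 to 49 without single animals. Between periods in ADLIB (3 members) it was 5 with total reads, 1 with the library name number as a block, 1 with the covariate, 0 at FDR under 0.0005 and 13 at 500 CPM, and from 2 to 6 without single animals; 6 came without ADLIB replicate 8 of Period 2. Leaving out the 5 members that rest on 1 group was chosen after seeing the data. It kept each count within 1.5 times. The totals without single animals hide changes of single calls. In every such fit 17 of the 21 members for diet in Period 1 and 6 of the 8 for the interaction were called. Between periods it was 28 of the 43 in RES and 2 of the 3 in ADLIB. The counts at FDR under 0.0005 are given without a share over all genes, so no result about the members is read from them. Beside the counts at 500 and 2000 CPM, the main fits called 10.3% of all genes for diet in Period 1 and 9.45% for the interaction. Between periods they called 23.1% in RES and 2.28% in ADLIB. The cause of the changes under these alternatives was not tested, except that a lower or higher threshold changes the number of members.

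The difference in summed share moved by less than the spread between single animals (SD 1.98 percentage points) under every alternative run. That spread is wider than the SE of the difference itself, 0.76 in Period 1 and 0.99 in Period 2. Without rank 1 the difference in Period 1 moved by more than its SE. The difference was -1.70 in Period 1 and -0.0057 in Period 2 without rank 1, and in Period 2 it turned to 0.19 with all counted reads as denominator (-3.37 in Period 1). Without single animals it ran from -3.10 to -2.38 in Period 1 and from -0.96 to -0.07 in Period 2. The denominator without the mitochondrial genome was not run, because the files do not tell which genes those are. Of the named members, signs turned in Period 1 for rank 9 (0.010 with total reads, 0.082 with the covariate), rank 14 (0.028 and 0.074), rank 1 (0.069 with the covariate) and rank 20 (-0.023 with the replicate block), none of them called.

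The animal numbers of the labels were used as a replicate block. Same-numbered RES and ADLIB animals deviated together with a correlation over 0.1 in 4 of 10 pairs in each period. The mean was 0.097 in Period 1 and -0.0011 in Period 2, beside -0.011 and 0.00019 for animals of unlike number. Correlations this weak cannot decide whether the numbers pair the animals. With the replicate block 23 members were called in Period 1 (19.5%, beside 12.1% of all genes), 0 in Period 2 (beside 0%) and 11 in the interaction (9.32%, beside 9.74%). Rank 78 in Period 1 and rank 87 in the interaction were then not called.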
